A study of Mus musculus with 13 samples.

Results

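A list of 10 genes of the Ras to ERK signalling pathway was followed in mouse melanoma cells that had grown as lung metastases in hosts with a human APOE2 or a human APOE3 allele. It comprised the ERK phosphatases Dusp4 and Dusp6, the pathway inhibitors Spry1, Spry2, Spry4 and Spred1, the transcription factors Etv4 and Etv5, and the Ras-inactivating proteins Dab2ip and Nf1. The genes were taken as a fixed list, chosen with earlier results of these data known. They were found by symbol, giving 10 of the 22656 genes in the deposited table. Dab2ip was chosen by its measured difference between the host genotypes. That difference is therefore described below without a test, and the tests concern the 9 other genes.

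The tumour cells in both groups were B16F10-TR-shApoe, a derivative of the mouse melanoma line B16F10 with a short hairpin directed at mouse Apoe, as the name of the line gives it. APOE2 and APOE3 knock-in mice received 100000 of these cells through the tail vein, and their lungs were digested 15 days later. Cells that bore GFP, lacked the leukocyte antigen CD45 and took up little of the dead-cell dye TO-PRO-3 were sorted. The study had 8 APOE2 mice and 5 APOE3 mice, and there were 8 and 5 libraries, made with a kit that reads the 3′ end of polyadenylated RNA. Age and sex of the mice are not given in the sources used here, and all tumours came from one cell line.

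As background, growth factor receptors load the small GTPase Ras with GTP, and Ras then activates the kinases RAF, MEK and ERK in turn. Active ERK raises the transcription of its own inhibitors. These include Dusp6, which removes the activating phosphates from ERK in the cytoplasm, Dusp4, which does so in the nucleus, and the Sprouty and Spred proteins, which act further upstream. Etv4 and Etv5 are ETS family transcription factors induced by the same pathway, while Nf1 and Dab2ip are GTPase-activating proteins that return Ras to its inactive form. In melanoma the levels of Dusp6, Spry and Etv genes are widely used as a readout of ERK pathway output.

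Values are normalised counts, that is, reads of a gene divided by the size factor of its library. Recovered whole reads ranged from 7080308 to 13039989 per library. The melanocyte marker list summed to between 302983 and 462007 normalised counts in APOE2 libraries and between 220387 and 334301 in APOE3 libraries. Lineage transcripts were thus abundant throughout. Dct was the largest part of that sum, with means of 232522 in APOE2 and 150389 in APOE3 (limma adjusted p = 0.126). Of the 8 genes in the list, 5 had log2 fold changes above 0 and 3 below, with a median of 0.045. Markers of other lung cells were present at lower levels and differed between the groups, as given at the end. APOE3 replicate 2 stood apart, with the lowest value of the 13 libraries in 17.9% of all tested genes and the highest in 18.5%. The noncoding transcript Gm42418 took 3.74% of its reads and 3.03% in APOE3 replicate 3, against 0.662% to 2.17% in the other libraries.

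The first question was whether the output of the ERK pathway differed between tumours of APOE2 and APOE3 hosts. By limma, 0 of the 9 tested genes passed a threshold of 0.05 after Benjamini-Hochberg adjustment, where 0.79% of all 12403 genes tested did (0.411% higher and 0.379% lower in APOE2). Of the 98 genes called in all, 51 were higher and 47 lower in APOE2, and 38 were higher and 54 lower when library totals were made equal. At an unadjusted p-value under 0.05 there was 1 of the 9, Spry2, where 14.2% of all genes passed (6.71% lower and 7.51% higher in APOE2). On recovered reads, edgeR's quasi-likelihood test called 0 of the 9 (1.11% of all genes, 0.492% higher and 0.621% lower), and DESeq2 called 1, again Spry2 (2.51% of all genes, 1.23% higher and 1.27% lower).

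All 9 genes had a log2 fold change below 0, meaning a lower estimate in APOE2, as had 49.9% of all genes tested. With TMM scaling the number was 8, since Nf1 then stood at 0.014. Leaving out 1 library in turn gave 7 to 9. The values lay between −1.23 for Spry4 and −0.0064 for Nf1 (median −0.32), beside 0.000365 over all genes tested. These fold changes are differences between means of log2(value + 1), which for genes with few counts can depart from the ratio of the means. For the low genes Spry4 and Etv4 they were larger than the estimates of the count models, as given with each gene. The 9 values come from the same 13 libraries and are not independent of each other.

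**Figure D1:**
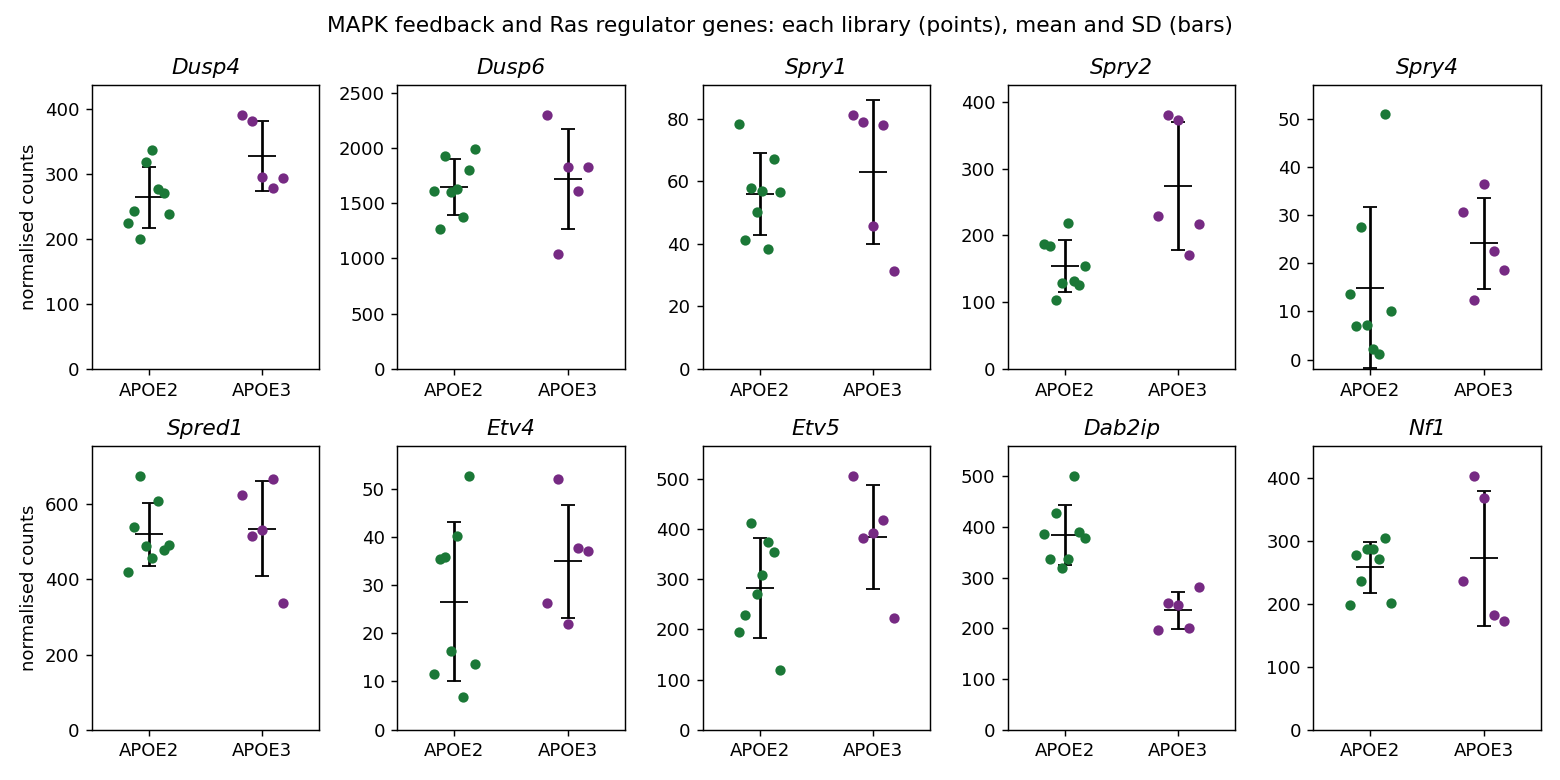
Normalised counts of the 10 genes in each library (vertical axes, starting at 0 except for Spry4, whose SD bar reaches below it), with APOE2 libraries in green and APOE3 libraries in purple; horizontal bars are group means and vertical bars the SD (n = 8 and n = 5). The genotypes overlap in 9 of the genes, and Dab2ip, which was picked for this difference, lies between 318 and 500.2 in APOE2 and between 196 and 282 in APOE3.

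The ERK phosphatases showed no difference past the threshold. Dusp6, the cytoplasmic ERK phosphatase, ranged from 1269 through a median of 1616 to 1991.5 normalised counts in APOE2. In APOE3 replicates 1 to 5 it stood at 2295, 1043, 1830, 1610 and 1829. Both the highest and the lowest Dusp6 value thus belonged to APOE3 libraries, and the genotypes overlapped. The means were 1649 ± 252 (SD, n = 8) and 1721 ± 454 (SD, n = 5), with a log2 fold change of −0.031 ± 0.15 (SE) and a 95% interval of −0.34 to 0.28 (limma adjusted p = 0.950). The estimate was −0.20 without APOE3 replicate 2, the library with the lowest value, and 0.084 without APOE3 replicate 1, the library with the highest.

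Dusp4, the nuclear counterpart, had on average 264 ± 46.8 normalised counts over the APOE2 libraries (SD, n = 8) and 328 ± 53.4 over the APOE3 libraries (SD, n = 5). The APOE2 libraries ran from 200.4 through a median of 258 to 338, and the APOE3 libraries stood at 391, 382, 296, 279.6 and 294. In 6 of the 8 APOE2 libraries Dusp4 lay below every APOE3 library, and in 2 of the 5 APOE3 libraries it lay above every APOE2 library. The log2 fold change of −0.32 ± 0.16 (SE) did not pass (95% interval −0.66 to 0.024, limma adjusted p = 0.389).

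Among the receptor-proximal inhibitors, Spry2 was the gene nearest to the threshold. Spry2 (ENSMUSG00000022114, chr14:105891947-105896819 on the minus strand of GRCm38) encodes a Sprouty protein that blocks the step from growth factor receptors to RAF. It ranged from 104 through a median of 143 to 219 normalised counts in APOE2. In APOE3 replicates 1 to 5 the values were 229, 379.6, 373, 170.4 and 218. Replicates 2 and 3 of APOE3 stood well above the rest, and replicates 4 and 5 lay inside the APOE2 range, so the genotypes overlapped.

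The Spry2 means were 154 ± 39.1 for APOE2 (SD, n = 8) and 274 ± 96.0 for APOE3 (SD, n = 5). The log2 fold change was −0.79 ± 0.23 (SE), an estimated ratio of 1.73 in favour of APOE3, with a 95% interval, not adjusted for the number of genes, of −1.26 to −0.32. It did not pass over all genes (limma unadjusted p = 0.00193, adjusted p = 0.105), nor with edgeR (adjusted p = 0.0720), and it passed with DESeq2 (log2 fold change −0.83, adjusted p = 0.0272). Leaving out 1 library in turn gave limma adjusted p-values between 0.0802 and 0.245. The log2 fold change was −0.66 without APOE3 replicate 2 and −0.66 without APOE3 replicate 3, the 2 libraries with the highest Gm42418 share. The part of that share in the Spry2 values was not tested.

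The other Sprouty and Spred genes did not pass. Spry4, which inhibits the same step, was thinly covered, with 1 to 59 reads in the APOE2 libraries and 11 to 35 in the APOE3 libraries. Its APOE2 values ran from 1.13 through a median of 8.62 to 50.9 normalised counts, and those of APOE3 were 30.5, 12.4, 36.4, 22.6 and 18.5. In 5 of 8 APOE2 libraries Spry4 lay below all of APOE3, while the highest value of all was also from APOE2, in replicate 7. Its log2 fold change of −1.23 ± 0.72 (SE) had a 95% interval of −2.72 to 0.26 (limma adjusted p = 0.452). The estimate depended on the method, at −0.68 with DESeq2, −0.67 with edgeR, −0.85 with a pseudocount of 5 and −2.05 with the endothelial marker mean as a covariate, and 0 of these passed.

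Spry1, also a Sprouty gene, had on average 55.9 ± 13.05 normalised counts over the APOE2 libraries (SD, n = 8) and 63.1 ± 23.0 over the APOE3 libraries (SD, n = 5). APOE3 replicates 1 to 5 stood at 81.1, 79.1, 45.8, 78.1 and 31.2, and the APOE2 libraries ran from 38.4 to 78.4. In APOE3 the values of replicates 1 and 2 thus lay above every APOE2 library, that of replicate 5 lay below every one, and the others lay inside the APOE2 range. Its log2 fold change of −0.11 ± 0.32 (SE) had an interval of −0.78 to 0.55 (limma adjusted p = 0.915). Spry1 overlaps Gm42922 on the opposite strand, a gene with at most 29.4 normalised counts, and the sources used here do not say if counting was strand-aware.

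Spred1, which brings Nf1 to the membrane where Ras is found, had nearly equal means of 519 ± 84.6 (SD, n = 8) and 535 ± 127 (SD, n = 5). The APOE2 libraries ran from 418 to 675 and the APOE3 libraries from 338 to 666.5. Its log2 fold change was −0.020 ± 0.16 (SE), with an interval of −0.35 to 0.31 (limma adjusted p = 0.971).

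The ETS factors did not pass either. Etv5 ranged from 118 through a median of 289.8 to 412 normalised counts in APOE2, and APOE3 replicates 1 to 5 stood at 506, 383, 392, 418 and 222. In 2 of the 5 APOE3 libraries Etv5 lay above every APOE2 library, and replicate 5 lay in the lower part of the APOE2 range. The log2 fold change was −0.49 ± 0.25 (SE), with an interval of −0.9998 to 0.023 (limma adjusted p = 0.376), and −0.67 without APOE3 replicate 5 (adjusted p = 0.191).

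Etv4, its close relative, was low, with on average 26.6 ± 16.5 normalised counts over the APOE2 libraries (SD, n = 8) and 34.97 ± 11.7 over the APOE3 libraries (SD, n = 5). In APOE2 it split between 4 libraries from 6.77 to 16.4, all below every APOE3 library, and 4 from 35.3 to 52.6. Its log2 fold change of −0.59 ± 0.51 (SE) had an interval of −1.64 to 0.45 (limma adjusted p = 0.632), and it was −0.40 with DESeq2 and −0.39 with edgeR.

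Of the Ras GTPase-activating proteins, Nf1 did not pass the threshold, and Dab2ip is the gene picked for its difference. Nf1, neurofibromin, had on average 258 ± 40.8 normalised counts over the APOE2 libraries (SD, n = 8) and 273 ± 107 over the APOE3 libraries (SD, n = 5). The APOE3 libraries lay at 237, 403, 368, 182 and 172, on both sides of the APOE2 range of 198 to 305. Its log2 fold change of −0.0064 ± 0.21 (SE) had an interval of −0.43 to 0.42 (limma adjusted p = 0.994). The sign for Nf1 changed with TMM scaling and in several fits that left out 1 library, reaching 0.16 without APOE3 replicate 2.

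Dab2ip (ENSMUSG00000026883, chr2:35558266-35730994 on the plus strand of GRCm38) encodes a scaffold with a Ras GTPase-activating domain that also binds the stress kinase ASK1. It ranged from 318 through a median of 383 to 500.2 normalised counts in APOE2. In APOE3 replicates 1 to 5 the values were 196, 251, 246, 201 and 282. The lowest APOE2 value, 318, was above the highest APOE3 value, 282. The same complete separation, higher in APOE2, was found in 0.476% of all genes tested (0.984% in either direction), and nothing is read from it here because the gene was chosen for it.

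The Dab2ip means were 384 ± 59.0 for APOE2 (SD, n = 8) and 235 ± 36.2 for APOE3 (SD, n = 5), a log2 fold change of 0.71 or a ratio of 1.63. Leaving out 1 library in turn gave 0.64 to 0.77. That range is no support for the difference, since the gene was chosen for it in the same libraries. The 9 tested genes had estimates of the sign opposite to Dab2ip with all 13 libraries, apart from Nf1 under TMM scaling. Dusp6, Spred1 and Nf1 changed sign in some fits that left out 1 library. Dab2ip overlaps Gm13446 on the opposite strand, which is not analysed here. Counting at the transcript end does not tell which of its several start sites was used.

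**Figure D2:**
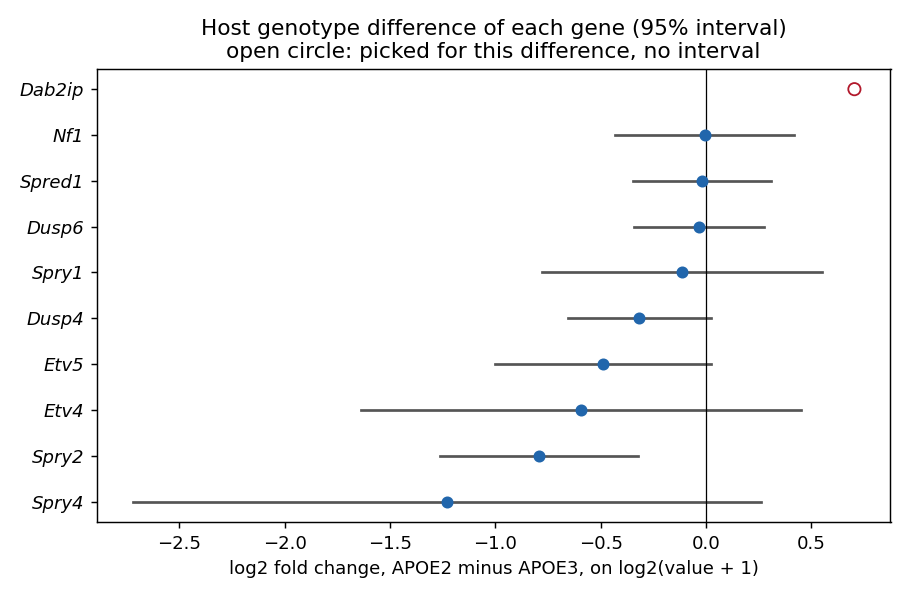
Log2 fold change of each gene, APOE2 minus APOE3 on the log2(value + 1) scale (horizontal axis), with lines for the 95% interval not adjusted for the number of genes. Dab2ip at 0.71 is an open circle without an interval; the intervals of 8 of the 9 other genes include 0, and that of Spry2 runs from −1.26 to −0.32.

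The rest of the pathway was read from 7 lists by role, chosen like the 10 genes with earlier results of these data known. Of 78 such genes in the table, 69 passed the filter of a mean of 10 normalised counts, and 0 had a limma adjusted p under 0.05. At an unadjusted p under 0.05 there were 7 higher and 5 lower in APOE2. By edgeR 0 were called, and by DESeq2 2, Ptpn11 (log2 fold change 0.43, adjusted p = 0.0396) and Dusp2 (0.57, adjusted p = 0.0423). The median log2 fold change of the 69 was −0.11, with 28 above 0 and 41 below.

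Of the receptor tyrosine kinases, 9 of 12 were tested and their median log2 fold change was −0.12. Fgfr2, a fibroblast growth factor receptor, was low, averaging 13.6 ± 11.4 normalised counts in APOE2 (SD, n = 8) and 31.6 ± 10.4 in APOE3 (SD, n = 5), with a log2 fold change of −1.77 (limma adjusted p = 0.302). Its annotated span overlaps Ctbp2 on the same strand, so the assignment of its reads is uncertain. Met, the hepatocyte growth factor receptor, was abundant in both groups at 10421 ± 820.4 (SD, n = 8) and 9886 ± 2235 (SD, n = 5), with a log2 fold change of 0.10 (limma adjusted p = 0.753).

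Adaptors and exchange factors had a median of 0.067 over 11 tested genes. Ptpn11 encodes the phosphatase SHP2, which carries the signal from receptors to Ras. It had on average 936 ± 130.2 normalised counts over the APOE2 libraries (SD, n = 8) and 694 ± 91.4 over the APOE3 libraries (SD, n = 5), for which limma gave a log2 fold change of 0.43 (SE 0.13, adjusted p = 0.110). Grb2, the adaptor that links receptors to the exchange factor SOS, had 1354 ± 143 against 1132 ± 60.1 (SD; limma log2 fold change 0.25, adjusted p = 0.279).

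The 9 Ras family GTPases, all tested, had a median of −0.11. Rras, a relative of the classical Ras proteins, had a log2 fold change of −0.48 (limma adjusted p = 0.391). The other GTPase-activating proteins, 6 of 8 tested, had a median of −0.11. Rasa3, the one with the smallest p-value, had on average 1349 ± 134 normalised counts over the APOE2 libraries (SD, n = 8) and 1097 ± 109 over the APOE3 libraries (SD, n = 5; log2 fold change 0.30 ± 0.11 SE, limma adjusted p = 0.212). Rasal3 had a log2 fold change of −0.32 (adjusted p = 0.615).

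Kinases and scaffolds of the cascade had a median of −0.087 over 12 tested genes. Lamtor3, a scaffold for MEK and ERK on late endosomes, had 624.8 ± 109 against 433 ± 121 normalised counts (SD; limma log2 fold change 0.56, SE 0.17, adjusted p = 0.123). Map2k1, which encodes MEK1, had 1734 ± 185 against 1263 ± 456 (SD; limma log2 fold change 0.55, SE 0.18, adjusted p = 0.163). Without APOE3 replicate 1 Map2k1 passed (log2 fold change 0.70, adjusted p = 0.0453).

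Other genes induced by ERK had a median of −0.19 over 13 tested genes. Dusp5, a nuclear phosphatase specific for ERK, had on average 34.8 ± 26.8 normalised counts over the APOE2 libraries (SD, n = 8) and 66.1 ± 21.9 over the APOE3 libraries (SD, n = 5; limma log2 fold change −1.17, SE 0.46, adjusted p = 0.254). It overlaps AC137853.2 on the opposite strand. Ier3 had 908 ± 196 against 1249 ± 403 (SD; limma log2 fold change −0.42, adjusted p = 0.306). The immediate early genes Fos and Egr1, with log2 fold changes of −0.36 and −0.37, did not pass (adjusted p = 0.374 and 0.513).

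The remaining dual specificity phosphatases, which mostly act on other MAP kinases, had a median of 0.039 over 9 tested genes. Dusp2, a nuclear phosphatase of ERK and p38, had on average 791 ± 182 normalised counts over the APOE2 libraries (SD, n = 8) and 534 ± 112 over the APOE3 libraries (SD, n = 5). Limma put the log2 fold change at 0.56 ± 0.16 (SE; adjusted p = 0.108). Dusp16, a phosphatase of JNK and p38, had 478 ± 67.7 against 377 ± 76.2 (SD; limma log2 fold change 0.36, adjusted p = 0.296). Of these 9 genes, 5 had estimates above 0 and 4 below, among the latter Dusp1 (−0.30, limma adjusted p = 0.576). The phosphatase genes thus had estimates on both sides of 0, positive for Dusp2 and Dusp16 and negative for Dusp4, Dusp5 and Dusp6. Dusp7, a phosphatase gene in the list of ERK-induced genes, was also positive (0.55, limma adjusted p = 0.434).

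**Figure D3:**
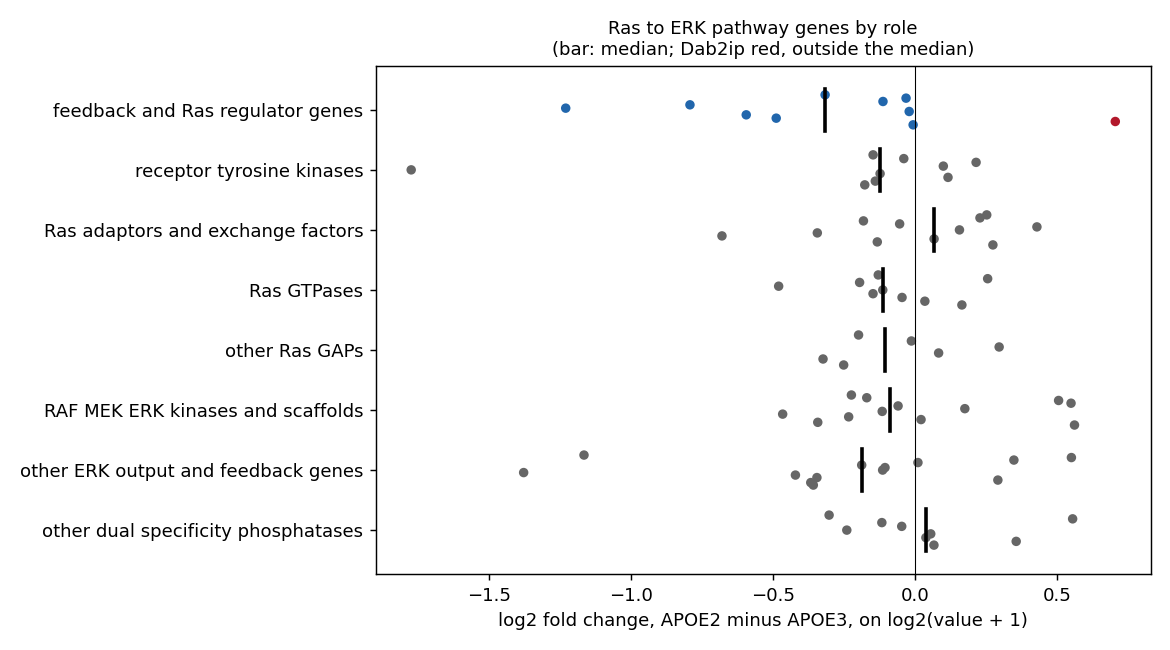
Log2 fold changes, APOE2 minus APOE3 on the log2(value + 1) scale (horizontal axis), of the 10 feedback and Ras regulator genes (top row, Dab2ip in red) and of 69 other tested pathway genes in 7 lists (one point a gene, bars at list medians). List medians lie between −0.19 and 0.067, and that of the 9 genes other than Dab2ip is −0.32; the medians of receptors, adaptors, other GTPase-activating proteins and other phosphatases changed sign in some fits that left out 1 library, and that of Ras GTPases under another setting.

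The next question was how much the genes varied among tumours of one host genotype. Spry4 and Etv4 varied most in APOE2, with coefficients of variation of 112% and 62.2%, where counting alone gives 24.2% and 18.8%. In the same libraries Dab2ip had 15.4%, Dusp6 15.3%, Nf1 15.8%, Spred1 16.3% and Dusp4 17.7%, against 2.37% to 6.04% from counting. In APOE3 Dab2ip had 15.4% and Dusp4 16.3%, whereas Spry4 reached 39.5%, Nf1 39.3%, Spry1 36.5% and Spry2 35.1%. Picking Dab2ip for its difference between groups favours a small spread within them, so its evenness is not a separate result. The counting figures are given for scale, since separate mice differ by more than counting. Copies of one molecule made by PCR may be counted more than once, so the counting figures leave that source of error out.

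Whether the genes varied together from tumour to tumour was examined after subtracting each genotype's mean. Over the 45 pairs of the 10 genes, Pearson's r lay between −0.47 and 0.64 (median 0.010), and 25 pairs were positive and 20 negative. After Benjamini-Hochberg adjustment over the 45 pairs 0 passed in a two-sided permutation test, and 2 had an unadjusted permutation p under 0.05. The larger of these was Spred1 with Etv5, at r = 0.64 (n = 13, permutation p = 0.0153, adjusted 0.561) and Spearman's rho 0.60 (permutation p = 0.0354, adjusted 0.797). Without the 2 libraries farthest from the Spred1 median, APOE2 replicate 3 and APOE3 replicate 5, r was 0.43, and within the 8 APOE2 libraries it was 0.51 (exact permutation p = 0.194).

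The other pair was Dusp6 with Spry4, at r = 0.51 (n = 13, permutation p = 0.0249, adjusted 0.561) and rho 0.69 (permutation p = 0.0118, adjusted 0.531). Without the 2 libraries farthest from the Dusp6 median, APOE3 replicates 1 and 2, r was 0.57. Pairs with a shared role did not stand out: r was −0.21 for Dusp4 with Dusp6 and 0.22 for Etv4 with Etv5. Among the Sprouty and Spred genes r ran from −0.35 for Spry2 with Spred1 to 0.34 for Spry1 with Spred1, with 0.010 for Spry1 with Spry2. Dab2ip with Nf1 gave 0.0073. Dab2ip had negative r with 8 of the 9 other genes, from −0.46 with Spry1 to −0.027 with Etv5, and none of these passed (permutation, adjusted over the 45 pairs). Without the 2 libraries farthest from the median of the other gene, these 8 ran from −0.079 with Dusp4 to 0.31 with Etv5. Those with Dusp6, Spry1, Spry4, Etv4 and Etv5 were then positive, so the negative signs depended on few libraries.

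**Figure D4:**
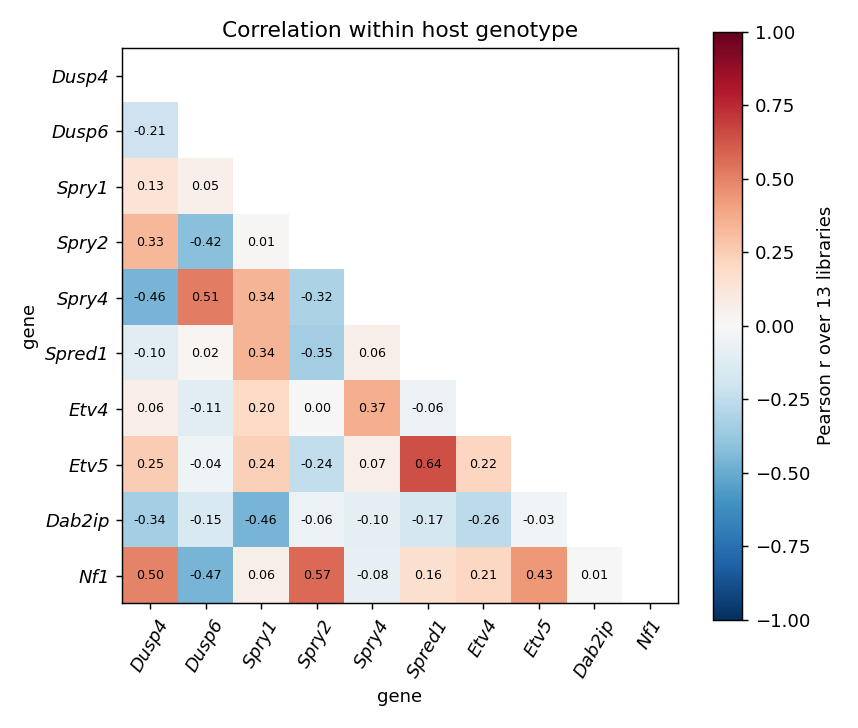
Pearson's r between each pair of the 10 genes over 13 libraries, after subtraction of the genotype mean from log2(value + 1); red is positive, blue negative, and each cell prints r. Values run from −0.47 (Dusp6 with Nf1) to 0.64 (Spred1 with Etv5), and 0 of 45 pairs passed adjustment.

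For orientation, the genes most like Dusp6 and Dab2ip in the same centred values were listed, among 9680 genes whose mean reached 50 normalised counts. For Dusp6 they were Nup107 (r = 0.92, rho 0.90), Sephs2 (r = 0.92, rho 0.91) and Ube2t (r = 0.91, rho 0.90) over 13 libraries. Without APOE3 replicates 1 and 2 these r were 0.84, 0.86 and 0.84. For Dab2ip they included Sord (r = 0.82, rho 0.81) and Zfp113 (r = 0.81, rho 0.79), with 0.69 and 0.74 without APOE2 replicates 4 and 6. These are among the highest of the 9680 values that share libraries and depth, and they are given as a description. None of the 5 is a gene of the lists above. Between genotypes Sord and Zfp113 had log2 fold changes of 0.27 and 0.35.

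In addition to the lowest Dusp6 level, APOE3 replicate 2 had the lowest values of the kinase gene Map2k1 (560.4 normalised counts) and of Cbl (324), which encodes a ubiquitin ligase acting on receptors, and the highest value of Pebp1 (5344), an inhibitor of RAF. Cbl and Pebp1 were chosen after their values were seen. In Cbl, for example, the other 4 APOE3 libraries stood at 1155, 980, 880.2 and 897. Over the 79 pathway genes tested, Dab2ip and the 9 others included, this library was lowest in 20.3% and highest in 19.0%, close to its 17.9% and 18.5% over all genes. Without it the log2 fold change of Dab2ip was 0.73 and that of Dusp4 −0.26.

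**Figure D5:**
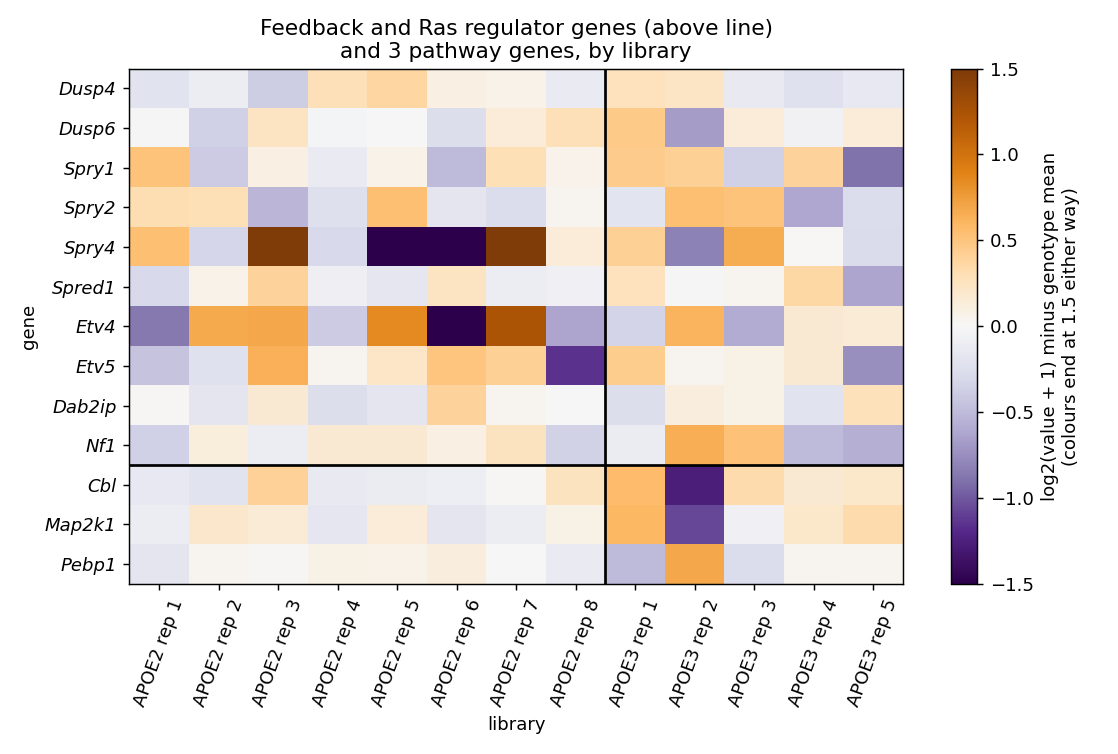
Deviation of log2(value + 1) from the genotype mean (colour, ending at 1.5 either way) for the 10 feedback and Ras regulator genes above the line and 3 other pathway genes below it, by library. APOE3 replicate 2 is low for Dusp6, Cbl and Map2k1 and high for Pebp1, and Spry4 and Etv4 vary most among APOE2 libraries.

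Since the sort started from whole digested lungs, the levels of marker genes of other cell types are set beside the results. In bulk RNA, fewer cells of a type and less RNA per cell cannot be told apart. The lung epithelium list (16 genes) summed to between 657 and 4116 normalised counts in APOE2, with a median of 2868, and to between 3456 and 21353 in APOE3, with a median of 12219.7. By limma 6 of its genes were lower in APOE2 and 0 higher. Its club cell gene Scgb3a2 was at 0 in all 5 APOE3 libraries and in 5 of the 8 APOE2 libraries.

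The endothelial list (14 genes) summed to between 794 and 1192 in APOE2 and between 1101 and 2349 in APOE3, with 2 genes called lower. The fibroblast and smooth muscle list (13 genes) summed to between 717 and 1036 and between 733 and 3192, with 2 lower. The leukocyte list (19 genes) summed to between 504 and 2504 and between 2107 and 12324, with 2 lower, Lyz2 and Cd74. Most of that sum was Lyz2, a myeloid gene that alveolar type II cells also express, with means of 1162 normalised counts in APOE2 and 5288 in APOE3. Ptprc, which encodes the CD45 used to remove leukocytes in the sort, had means of 6.90 and 14.01, and Adgre1 had 0.193 and 0.642. S100a8, with means of 122 and 118, and S100a9 did not pass (limma adjusted p = 0.978 and 0.656). The T-cell gene Cd3d was at 0 in all 5 APOE3 libraries and in 6 of the 8 APOE2 libraries. The heart muscle list (8 genes) summed to between 40.4 and 256 and between 236 and 626, with 1 lower. The erythroid list (5 genes in the table) summed to between 40.6 and 189 and between 23.2 and 219.8, with 0 called.

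With the epithelial marker mean as a covariate in limma, the log2 fold change of Dab2ip was 0.73 and that of Spry2 −0.67 (limma adjusted p = 0.519 for Spry2). With the endothelial mean they were 0.72 and −0.70 (limma adjusted p = 0.943 for Spry2). The Dab2ip values are description only, since the gene was chosen for its difference. With the endothelial mean Etv5 stood at −1.42, Spry4 at −2.05, Spry1 at −0.69, Spred1 at −0.33 and Nf1 at −0.26, and Etv4 was at −0.21. All 14 endothelial genes had log2 fold changes below 0 (median −1.48). That covariate therefore differed with genotype, and these estimates cannot be well separated from it. With these covariates 2 and 0 of all genes were called.

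Within genotypes, the 10 genes and the 6 marker lists of other cells gave 60 correlations, of which 0 passed adjustment and 3 had an unadjusted permutation p under 0.05. Spry1 and the leukocyte mean had r = 0.61 (n = 13, permutation p = 0.00602, adjusted 0.361) and rho 0.63 (permutation p = 0.0188, adjusted 0.631), and r was 0.52 without APOE2 replicate 6 and APOE3 replicate 5. That relation passed narrowly without APOE2 replicate 3 (r = 0.72, 20000 permutations, adjusted p = 0.0480). The value is too near 0.05 for that number of permutations to settle. Etv5 had r = −0.61 with the endothelial mean (permutation p = 0.0210, adjusted 0.574) and Spred1 r = −0.69 with the erythroid mean (permutation p = 0.0287, adjusted 0.574). Without the 2 farthest libraries these were −0.34 and −0.47. The part of other cells in the values of the 10 genes was not tested.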

How the data were processed

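Values for each gene and library were deposited by the authors as normalised counts, a signal that is never negative, in 1 table. STAR 2.6.0, featureCounts and DESeq2 1.28.1 on build mm10 are named, per the submitters' processing notes; strand use, annotation and counting options are not given in the sources used here. In each library 100% of nonzero values were whole multiples of 1 step (tolerance 0.001), which gave whole reads. Symbols came from GENCODE M21 (22649 of 22656 identifiers), and coordinates are on GRCm38. Genes with a mean of at least 10 were tested on log2(value + 1) with limma 3.58.1 (trend, two-sided, R 4.3.3), Benjamini-Hochberg adjusted over all genes, threshold 0.05. edgeR 4.0.16 and DESeq2 1.42.0 were run on recovered reads. Correlations used 100000 permutations within genotype, and 20000 for each fit that left out 1 library. The limma and correlation steps were tested on simulated data. In simulated reads limma recovered 63.2% of 95 genes with a log2 change of 1 and 84.2% of 95 with a change of 2. Unchanged genes made up 2.78% of its calls. Changes smaller than 1 were not simulated. The genes and lists were chosen with earlier results of these data known. Named pathway genes are those past the threshold and the 2 with the smallest p-value in each list, and the 3 genes most like Dab2ip and Dusp6. Some genes that this rule names are not reported here. Alternatives were other pseudocounts, scalings, filters and models, marker covariates, a replicate block and each library left out.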

Additional observations from a re-analysis of the deposited data

How the results depend on the processing

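Of 9 genes, 0 were called by limma at pseudocounts of 0.5 and 5, with equal totals, TMM scaling, no filter or a minimum mean of 50 (which removes Spry4 and Etv4), without the variance trend, with either marker covariate, with the replicate block, by edgeR, and whichever library was left out (0 to 0); DESeq2 called 1. Of the other pathway genes DESeq2 called 2 and leaving out a library gave 0 to 1. The count over all genes was less stable: 311 with DESeq2, 9 without a filter, 0 without the trend (1599 at an unadjusted p under 0.05), 2 with the lung epithelium covariate, 0 with the endothelium covariate (1062 and 667 at an unadjusted p under 0.05), and 9 to 228 without 1 library. It moved by over 1.5 times without APOE2 replicate 1, 2, 5, 7 or 8 and without APOE3 replicate 1 (228), 3 (9) or 4. The cause was not tested. Nf1 changed sign with TMM scaling (0.014). Leaving out 1 library gave −0.20 to 0.084 for Dusp6, −0.18 to 0.068 for Spred1 and −0.15 to 0.16 for Nf1. Spry2 was −0.83 with DESeq2. Counts of pairs past the threshold were 0 throughout, and those of gene and marker pairs 0 to 1 without 1 library.

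Replicate numbers are shared between the groups but did not pair the libraries: deviations of same-numbered libraries correlated from −0.063 to 0.014. With the replicate block on replicates 1 to 5, limma called 62 genes, against 40 in the same 10 libraries without it, a fit added after seeing the data. Spry4, with 1 to 59 reads a library in APOE2, is the gene most limited by depth.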
